A study of Mus musculus with 2 samples.

Results

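Replication-dependent histone genes lie in clusters, and the largest mouse clusters were examined here for DNA double-strand break ends in B cells. The members were the 635 non-overlapping 1 kb bins of 3 stretches of the mm10 genome, out of 2460751 bins on chromosomes 1 to 19. They were chosen by position alone. The first chromosome 13 cluster spans chr13:21715001-22045000 (330 bins), the second spans chr13:23530001-23765000 (235 bins), and the chromosome 3 cluster spans chr3:96215001-96285000 (70 bins). A bin was called a histone-gene bin when it overlapped 1 of the 62 protein-coding histone genes annotated there by RefSeq (GRCm38.p6), which gave 150 histone-gene bins and 485 other bins. The genes encode 6 H1, 16 H2A, 16 H2B, 12 H3 and 12 H4 histones. The gene RefSeq calls H4bc24 carries an H2B synonym and was counted as H2B.

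Break ends were measured by END-seq, in which an adapter is ligated to the ends of broken DNA in cells embedded in agarose, so that each read marks a break end and the side on which the DNA continues. The cells were primary CD43- B cells from the spleens of mice aged 4 to 8 weeks, 1 library for each of 2 states. The activated cells, taken in S phase, had been kept 24 to 28 h in culture with the cytokine IL-4 at 25 ng/mL and an antibody against CD40 (anti-CD40) at 1 µg/mL, and the quiescent cells, in G1 phase, without either. The titles of both libraries carry the prefix ATR+c, which the labels do not explain, and nothing else is said of genotype. Activation and cell-cycle phase change together, so their effects cannot be told apart. Break ends do not show which genes a cell expresses, so the labelled cell type and state could not be checked against markers.

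Of 21997695 S-phase reads 20543572 fell on chromosomes 1 to 19, and of 28933109 G1 reads 26889564 did. All levels below are RPM, reads per 1000000 of these, and all ratios are the scaled S-phase value over the scaled G1 value. Reads were stacked, with 2.84 reads per covered position and strand in S phase and 3.84 in G1. No molecular identifiers were used, so a stack can be copies of 1 molecule. The 95% intervals given with ratios and shares cover counting error only and are too narrow where reads are stacked. Ratios of covered positions, each counted once, therefore stand beside the main ones. With 1 library per state there was no test and no replicate check, and every ratio describes these libraries.

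Replication-dependent histone genes supply the H2A, H2B, H3 and H4 proteins that wrap new DNA into nucleosomes, and the H1 linker histones that bind between them. They are transcribed almost only in S phase, from short genes without introns whose mRNAs end in a stem-loop in place of a poly(A) tail. Many copies of each gene lie together and form the histone locus body in the nucleus. H2A and H2B genes often stand head to head and share a promoter, with CCAAT boxes, which the factor NF-Y binds, and in some an octamer, which the factor Oct-1 binds. H1 promoters also carry a CCAAT box close to the start of transcription.

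The sequences below show promoters of genes named in the results. RefSeq promoter entries (GRCm38.p6) were found for 57 of the 62 genes. The first set holds the 250 bases before the start of the genes with the highest S-phase to G1 ratio (H4c1, H4c6) and the lowest (H2ac21, H2ac18). Capitals mark matches to 3 motifs by sequence alone, the TATA box as TATAAA, the CCAAT box, and the octamer as ATTTGCAT. On the other strand they read TTTATA for the TATA box, ATTGG for the CCAAT box and ATGCAAAT for the octamer.
H4c1 (chr13:23761250-23761499, minus strand): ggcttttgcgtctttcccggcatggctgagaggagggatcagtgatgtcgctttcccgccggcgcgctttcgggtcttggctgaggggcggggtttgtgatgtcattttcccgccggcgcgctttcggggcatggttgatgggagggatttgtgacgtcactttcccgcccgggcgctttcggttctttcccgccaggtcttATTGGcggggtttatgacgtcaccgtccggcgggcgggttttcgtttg
H4c6 (chr13:23551669-23551918, minus strand): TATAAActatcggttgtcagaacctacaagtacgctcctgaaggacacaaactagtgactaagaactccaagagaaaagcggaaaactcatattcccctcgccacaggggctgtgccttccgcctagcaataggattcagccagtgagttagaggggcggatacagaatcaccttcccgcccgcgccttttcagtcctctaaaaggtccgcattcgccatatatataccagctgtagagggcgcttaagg
H2ac21 (chr3:96219635-96219884, plus strand): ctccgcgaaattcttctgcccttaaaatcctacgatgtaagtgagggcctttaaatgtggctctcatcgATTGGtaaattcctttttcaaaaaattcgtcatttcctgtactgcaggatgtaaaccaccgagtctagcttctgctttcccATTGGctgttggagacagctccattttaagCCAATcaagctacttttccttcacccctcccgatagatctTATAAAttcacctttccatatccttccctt
H2ac18 (chr3:96245247-96245496, plus strand): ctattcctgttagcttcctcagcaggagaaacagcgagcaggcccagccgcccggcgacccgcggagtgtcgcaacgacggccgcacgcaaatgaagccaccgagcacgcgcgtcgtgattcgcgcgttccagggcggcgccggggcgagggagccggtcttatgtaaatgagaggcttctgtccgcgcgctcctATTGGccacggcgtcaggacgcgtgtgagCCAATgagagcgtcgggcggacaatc

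The second set holds bases 120 to 41 before the start of all 6 H1 genes, with CCAAT in capitals on either strand. These were chosen after their values were seen, because the most covered break-end position of 4 of them lay close before the CCAAT in both libraries.
H1f1 (chr13:23763548-23763627, plus strand): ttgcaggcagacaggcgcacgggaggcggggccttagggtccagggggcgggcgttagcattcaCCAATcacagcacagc
H1f2 (chr13:23738687-23738766, plus strand): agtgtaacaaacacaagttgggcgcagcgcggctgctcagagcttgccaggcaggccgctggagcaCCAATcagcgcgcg
H1f3 (chr13:23554912-23554991, plus strand): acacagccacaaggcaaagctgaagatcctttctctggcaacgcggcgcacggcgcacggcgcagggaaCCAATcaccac
H1f4 (chr13:23622599-23622678, minus strand): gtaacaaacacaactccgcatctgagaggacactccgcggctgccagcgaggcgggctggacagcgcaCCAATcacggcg
H1f5 (chr13:21780666-21780745, minus strand): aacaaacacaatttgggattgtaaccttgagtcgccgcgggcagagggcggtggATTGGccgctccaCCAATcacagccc
H1f6 (chr13:23695691-23695770, plus strand): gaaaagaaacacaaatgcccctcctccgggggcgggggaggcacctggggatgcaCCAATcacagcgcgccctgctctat

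TATAAA or its reverse was found in the 300 bases around the start (250 before, 50 after) of 32 of the 57 histone promoters (56.1%), against 14.2% of all 27025 promoters of the same length. CCAAT or its reverse was found in 49 (86.0%), against 37.9% of all promoters. All 46 H1, H2A, H2B and H3 promoters held CCAAT, and 3 of 11 H4 promoters did, among them H4c1. The octamer ATTTGCAT was found in 5 H2A and 5 H2B promoters (17.5% of the 57), against 1.75% of all promoters. The 57 windows merge into 48, as those of divergent genes can overlap, so a motif in a shared stretch counts for each gene. In H4c1 and H2ac18 a TATAAA lay 41 and 11 bases after the annotated start, which is outside the stretches shown. In H4c6 the marked TATAAA lay 250 bases before the start, at the far edge of its stretch. Matches were counted wherever they lay in the 300 bases, and whether they act as a TATA box was not tested.

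Break ends were concentrated at the histone genes in both states. The 150 histone-gene bins held 4403 reads in S phase, against 4387 in G1, or 1.43 against 1.09 RPM per bin. The 485 other bins held 4078 reads in S phase, against 4370 in G1, or 0.409 against 0.335 RPM per bin. Histone-gene bins were therefore 3.49 times as dense as the bins between them in S phase and 3.25 times in G1, or 2.85 and 2.68 times when each covered position was counted once. The average 1 kb bin of chromosomes 1 to 19 holds 0.406 RPM in each library by the scaling. The other bins were close to that average in S phase (0.409) and below it in G1 (0.335).

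The bins with the most reads were the same kind of place in both states, the gap between a pair of divergent genes or the start of a single one. The bin at chr13:22035001-22036000, which holds the shared promoter of H2ac12 and H2bc12, led in both, with 195 reads in S phase, against 196 in G1 (ratio 1.30, 95% interval 1.06 to 1.60). The bin at chr13:21716001-21717000, between H2ac13 and H2bc13, followed in S phase with 192 reads, against 128 in G1 (ratio 1.96, 1.56 to 2.48). Its reads lay on 28 covered positions in S phase, against 25 in G1, and its highest S-phase position held 47 reads. On chromosome 3 the bin at chr3:96246001-96247000, with H2ac18 and H3c14, had 166 reads in S phase, against 123 in G1 (1.77, 1.39 to 2.25). The bins of the lone genes H3c8 and H1f1 had 145 and 134 reads in S phase, against 130 and 136 in G1. In G1 the bin of H1f5 came after that of H2ac12 and H2bc12, with 123 S-phase and 139 G1 reads, and the bin of H2ac21 on chromosome 3, with 64 S-phase and 130 G1 reads, was also among the 5 highest.

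**Figure D1:**
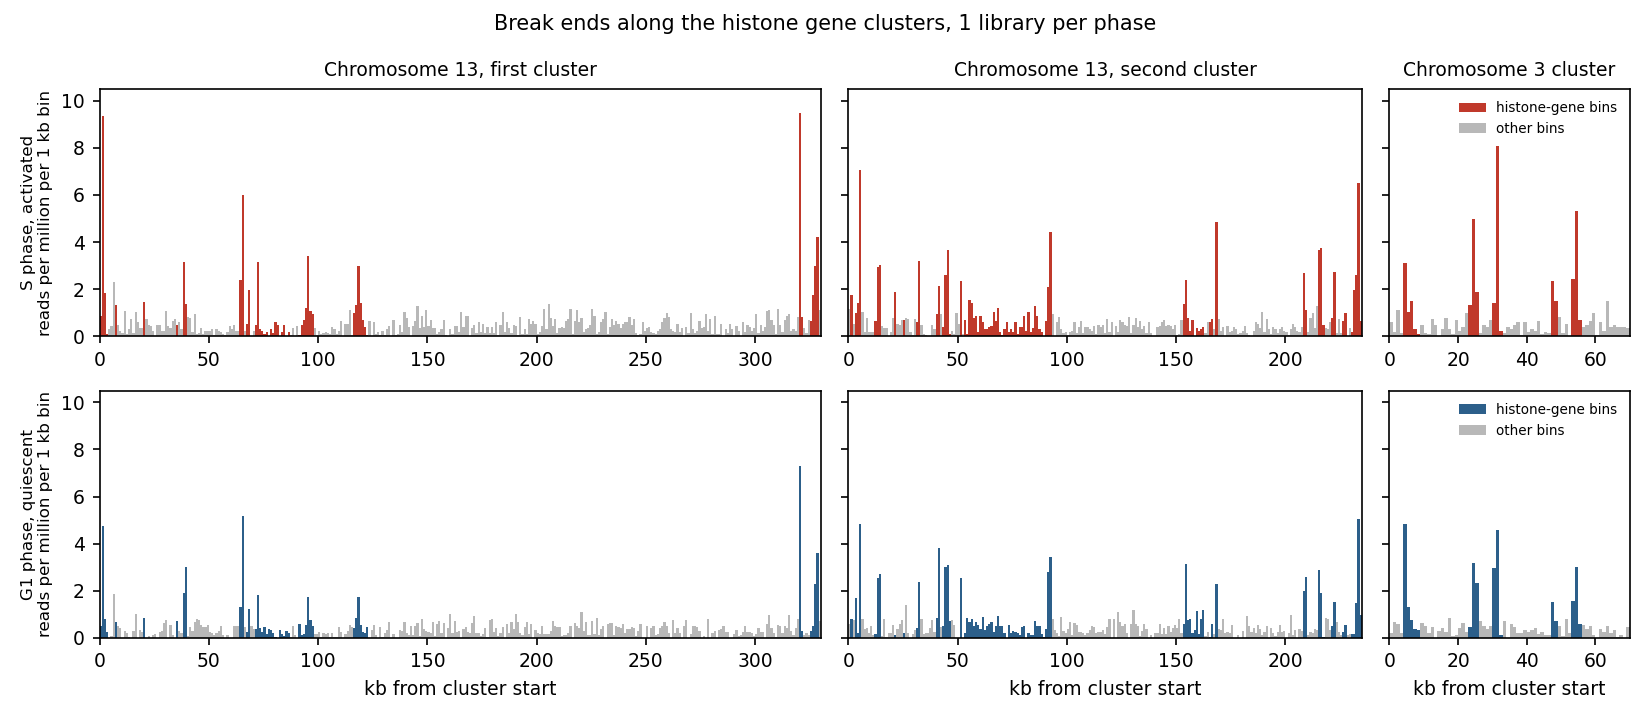
Break ends along the first chromosome 13 cluster, the second chromosome 13 cluster and the chromosome 3 cluster, in RPM per 1 kb bin (y axis) by kb from the cluster start (x axis), with the S-phase library above and the G1 library below. Coloured bars are histone-gene bins and grey bars are other bins; the highest bin reaches 9.49 RPM in S phase and 7.29 RPM in G1, while the highest of the other bins reaches 2.29 and 1.86 RPM.

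Within the genes, the ends gathered just before the annotated start. Distances are from the RefSeq start, which may be offset in some genes, as in H4c1 and H2ac18, where a TATAAA lies after it. Over the 53 genes of up to 1000 bp with a known strand, each read counted once, the 100 bases before the start held 14.4 RPM per kb in S phase, against 9.92 in G1. The 100 bases before those held 9.42 RPM per kb in S phase, against 7.59 in G1. The first 100 bases of the gene held 2.92 RPM per kb in S phase, against 2.15 in G1, and the 200 bases after those held 0.955, against 0.561. Between 500 and 1000 bases before the start the level was 0.766 RPM per kb in S phase, against 0.646 in G1. The gene bodies thus carried little of the signal, and the peak before the start was present in the quiescent cells as well.

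The families differed in where and how high this peak stood. H1 genes were the most focused, with 28.1 RPM per kb in the last 100 bases before the start in S phase, against 20.6 in G1, and 1.54, against 0.868, in the 100 bases before those. H2B genes were high in both segments, with 17.7 RPM per kb in S phase, against 11.97 in G1, in the last 100 bases, and 20.2, against 16.6, in the 100 before. H2A genes were also high in both, with 13.8 RPM per kb in S phase, against 12.7 in G1, in the last 100 bases, and 13.1, against 10.8, in the 100 before. Reads in a promoter shared by an H2A and an H2B gene enter both families. H3 genes had 15.9 RPM per kb in the last 100 bases in S phase, against 7.25 in G1. H4 genes were the lowest there in both states, with 6.46 RPM per kb in S phase, against 3.08 in G1.

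**Figure D2:**
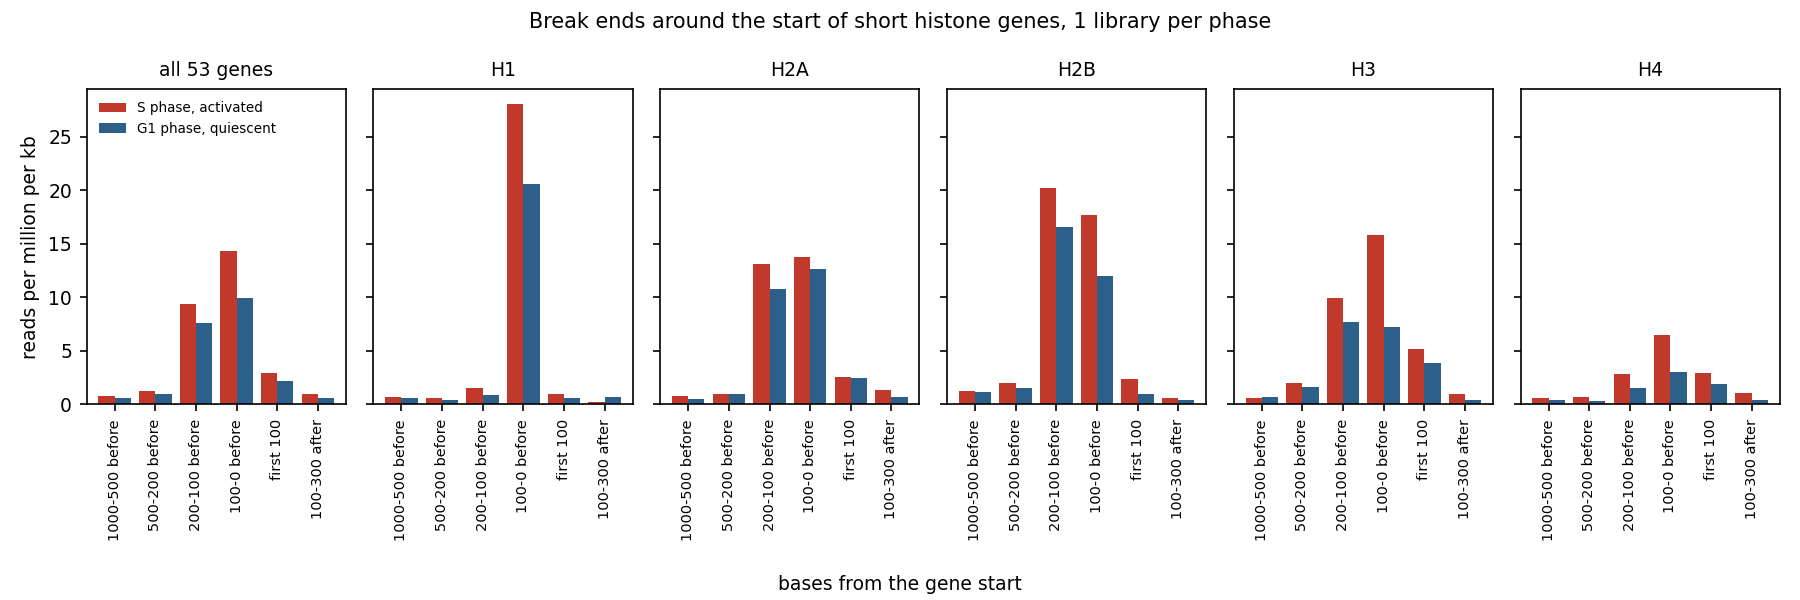
RPM per kb (y axis) in segments before and after the gene start (x axis, bases from the start) for the 53 short histone genes and for each family, with S phase (red) to the left of G1 (blue) in each pair. The last 100 bases before the start reach 28.1 RPM per kb in S phase and 20.6 in G1 for H1 genes, and 6.46 and 3.08 for H4 genes.

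The strand of the ends changed across the start. Between 100 and 200 bases before it, 36.4% of reads lay on the sense strand in S phase (exact 95% interval 33.6 to 39.3), against 31.1% in G1 (28.5 to 33.9). In the last 100 bases before it, the shares were 49.7% and 49.8%. In the first 100 bases of the gene they were 78.9% in S phase (74.0 to 83.3), against 76.8% in G1 (71.7 to 81.4). H1 genes stood apart, with 15.9% of reads sense in the last 100 bases before the start in S phase, against 19.9% in G1. A promoter shared by divergent genes enters here once for each of its genes, which draws the sense share toward 50%. In the 20 lone genes the sense share between 100 and 200 bases before the start was 33.3% in S phase, against 34.1% in G1. It was 39.9%, against 33.0%, in the last 100 bases before the start, and 66.7%, against 61.25%, in the first 100 bases of the gene.

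Set against other promoters, those of histone genes were high in both states. The 300-base windows of the 57 histone promoters had a median of 2.29 RPM in S phase, against 1.60 in G1, and all 25748 promoters on chromosomes 1 to 19 had a median of 0.146, against 0.112. The histone median lay at percentile 91.2 of all promoters in S phase and 92.4 in G1. Ribosomal protein genes, which every growing cell uses, had a median of 1.02 RPM in S phase, against 0.669 in G1. Hox genes, another set of clustered genes, had 0.0243 RPM in S phase, against 0 in G1. Among histone families the H4 median was lowest, at 0.633 RPM in S phase, against 0.298 in G1 (percentiles 77.6 and 68.8), and the H3 median was highest in S phase, at 2.99, against 2.18 in G1.

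Part of the covered bases were the same in both libraries. Of the covered positions in histone promoters, 27.8% of those in S phase were also covered in G1, which is 36.6% of those in G1. In other promoter windows the shares were 18.0% and 27.6%, in the 3 clusters as a whole 7.74% and 9.87%, and on chromosomes 1 to 19 1.83% and 1.93%. Since a dense window shares more positions by its density alone, these shares are a description. The most covered position and strand was the same one in 8 of the 55 histone promoters with reads in both libraries (14.5%), against 7.02% of other promoters. Among promoters with at least 20 reads in each library it was the same in 8 of 43 histone promoters (18.6%), against 20.1% of 3156 others, so at like depth the histone promoters were near the background.

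In 4 of the H1 promoters printed above the most covered position was the same in both libraries or 1 base apart. In H1f1, which encodes H1.1, the most covered position lay on the antisense strand 76 bases before the start in both libraries, with 38 of 130 promoter reads in S phase and 36 of 123 in G1. In H1f4, which encodes H1.4, it lay 69 bases before the start in both, with 31 of 78 reads in S phase and 23 of 79 in G1. In H1f5, which encodes H1.5, it lay 73 bases before the start in S phase (31 of 107 reads) and 74 in G1 (45 of 109), and in H1f2, which encodes H1.2, 70 bases in S phase (10 of 38) and 71 in G1 (8 of 39). Measured from the first C of the sense-strand CCAAT, these positions lay 20, 17, 20 and 16 bases before it in S phase, against 20, 17, 21 and 17 bases in G1. The other H1 genes, H1f3 and the testis-specific H1f6, also have this CCAAT but had 13 and 7 promoter reads in S phase, against 0 and 1 in G1, and their most covered S-phase positions lay 74 and 52 bases before it. Over all families the most covered position lay within 30 bases before the nearest CCAAT in 18 of 47 promoters in S phase and 24 of 46 in G1. H1f5 is not among them, as the CCAAT nearest to its position is the one on the other strand. A promoter shared by divergent genes enters once for each gene. No such count was made for other promoters, so there is no background share.

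Around CCAAT in the histone promoters as a whole, ends were also unevenly spread. The 250 bases before the 57 starts held 96 distinct CCAAT motifs on either strand, and reads within 60 bases of each were counted by strand, once for each motif they were near. On the strand opposite to the motif, the 15 bases from 30 to 16 before it held 22.2% of these reads in S phase (20.9 to 23.5), against 21.4% in G1 (20.2 to 22.7), where an even spread would give 6.25%. On the motif's own strand, the 10 bases from 15 to 6 before it held 9.73% in S phase, against 10.4% in G1, where an even spread would give 4.17%. The motif with the next 5 bases held 2.93% on both strands in S phase, against 4.41% in G1, where an even spread would give 8.33%. The intervals of these shares are too narrow, as reads are stacked and can count for several motifs. These segments were set after the profile was seen.

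The pattern was not limited to histone genes. Around 11966 CCAAT motifs before all other gene starts, the opposite-strand segment held 15.6% of reads in S phase, against 15.1% in G1, the own-strand segment 11.2%, against 10.7%, and the motif with the next 5 bases 1.30%, against 1.36%. A block of ends before CCAAT and a gap over it were thus measured in both states and in both sets of promoters. Histone promoters also had a step on the motif's strand 10 to 14 bases after its first base, with 241 reads on 27 positions in S phase and 185 on 24 in G1, where the step 10 to 6 bases before it had 246 and 292. In the other promoters the step after counted 1377 S-phase and 1383 G1 reads, and the step before 15670 and 12813. Their ends were not confined to the side before the motif. On the motif's strand the step 35 to 39 bases after its first base counted 10646 S-phase and 9345 G1 reads. On the opposite strand the step 20 to 24 bases after it counted 12074 and 10942. The histone step 10 to 14 bases after the first base includes the most covered end of H1f5 (31 S-phase and 45 G1 reads). That end lies 11 and 12 bases after the H1f5 CCAAT on the other strand. The same reads were placed above at 20 and 21 bases before its sense-strand CCAAT. How much of this step comes from ends that also lie before another CCAAT was not tested. Counted as covered positions, the opposite-strand segment held 15.7% in histone promoters in S phase, against 16.1% in G1, and 12.5% and 12.8% in other promoters.

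**Figure D3:**
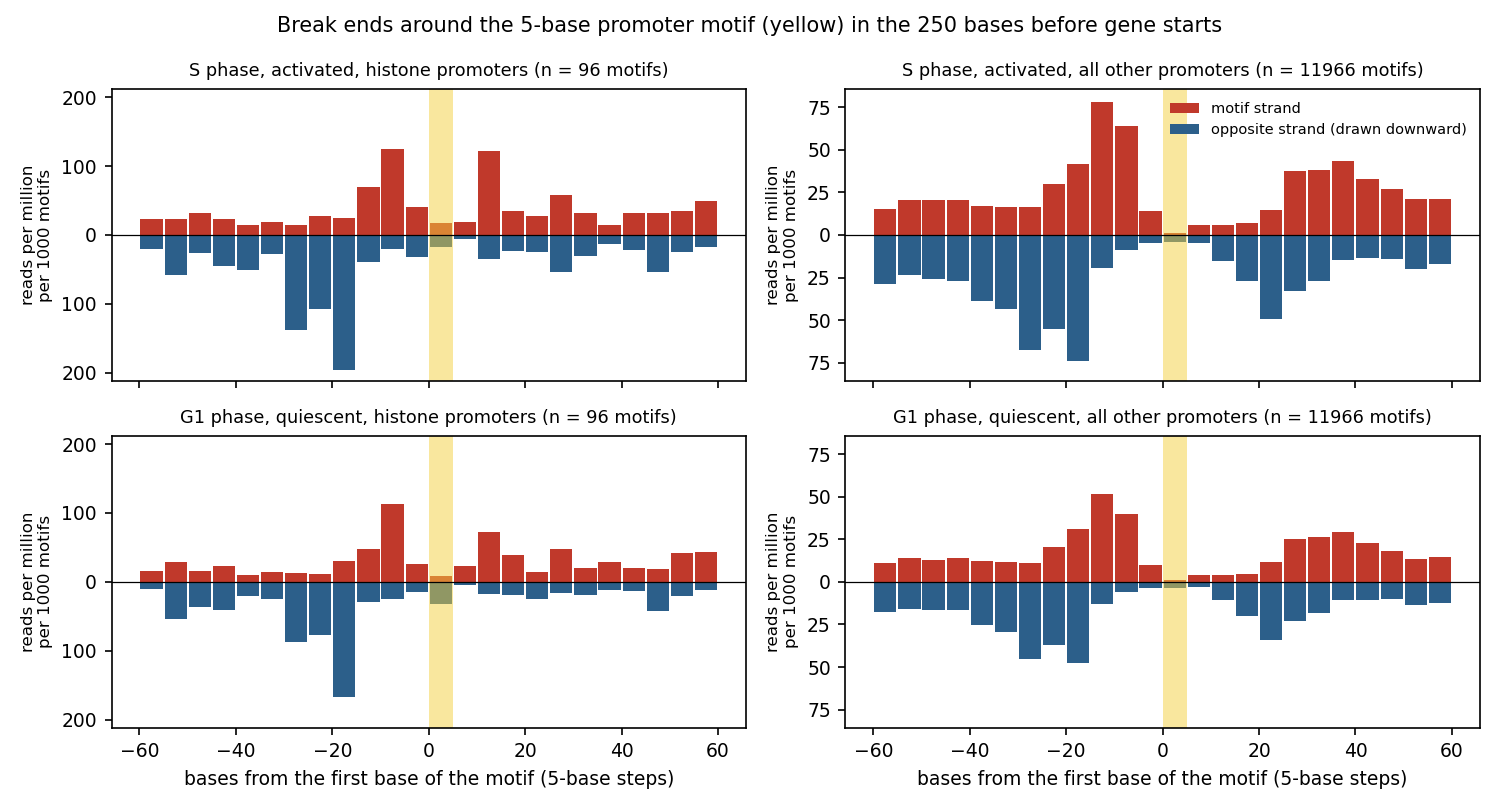
RPM per 1000 CCAAT motifs (y axis) in 5-base steps from the first base of the motif (x axis), on the motif's strand (red, upward) and the opposite strand (blue, downward), with S phase above and G1 below, histone promoters on the left and all other promoters on the right. The y scales of the left and right columns differ, and the yellow band is the motif; opposite-strand ends 30 to 16 bases before it make up 22.2% of reads in histone promoters in S phase and 21.4% in G1, and 15.6% and 15.1% in other promoters.

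Between the states, all 3 clusters had more scaled reads in S phase. The first chromosome 13 cluster held 3946 reads in S phase, against 3783 in G1, a ratio of 1.37 (1.31 to 1.43), or 1.30 (1.20 to 1.41) in covered positions. The second held 3328 reads in S phase, against 3708 in G1, a ratio of 1.17 (1.12 to 1.23), or 1.14 (1.05 to 1.25) in covered positions. The chromosome 3 cluster held 1207 reads in S phase, against 1266 in G1, a ratio of 1.25 (1.15 to 1.35), and in covered positions its ratio of 1.14 (0.982 to 1.32) had an interval that held 1. Together the ratio was 1.27 (1.23 to 1.31).

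This difference was not confined to the genes. Histone-gene bins had a ratio of 1.31 (1.26 to 1.37) and the other bins of the clusters 1.22 (1.17 to 1.27). The ratio of histone-gene bins over that of other bins was 1.08 (1.01 to 1.14), and 1.07 (0.952 to 1.19) in covered positions. It was 1.17 (1.07 to 1.28) on the plus strand alone and 0.979 (0.899 to 1.07) on the minus strand alone, so its direction turned with the strand. The 387 bins that overlap no annotated gene had a ratio of 1.19 (1.13 to 1.25), and the 500 kb on both sides of the clusters 1.12 (1.11 to 1.14). Bins of ribosomal protein genes had 1.32 (1.28 to 1.37), bins of all protein-coding genes 1.05 and bins with none 0.970. The 33 bins that hold tRNA genes, which are interspersed in the clusters and encode the adaptors of translation, had the highest ratio of these classes, 1.72 (1.49 to 1.99), from 426 reads in S phase, against 324 in G1.

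**Figure D4:**
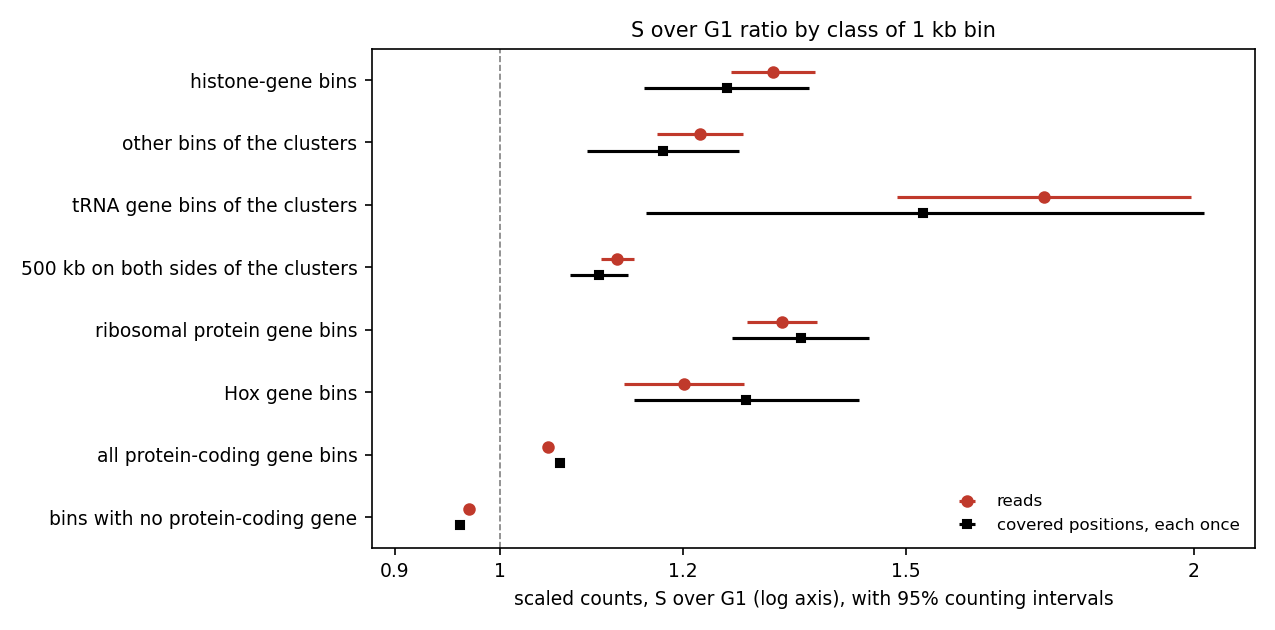
Scaled S-phase over G1 ratio (x axis, log scale) by class of 1 kb bin (y axis), for reads (red circles) and for covered positions each counted once (black squares), with 95% counting intervals. Histone-gene bins stand at 1.31 in reads and 1.25 in positions, other bins of the clusters at 1.22 and 1.18, and tRNA gene bins at 1.72 and 1.53.

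At the promoters themselves the S-phase excess of histone genes was below that of promoters in general. The histone promoter windows held 2545 reads in S phase, against 2473 in G1, a ratio of 1.35 (1.27 to 1.42), where all promoters together had 1.53 (1.52 to 1.53) and ribosomal protein promoters 1.73 (1.62 to 1.85). In covered positions the ratios were 1.25 (1.11 to 1.42) for histone promoters and 1.46 (1.44 to 1.47) for all. By family, the promoter ratio was 1.92 (1.57 to 2.34) for H4, 1.54 (1.37 to 1.72) for H3, 1.39 (1.20 to 1.61) for H1, 1.37 (1.25 to 1.495) for H2B and 1.13 (1.03 to 1.23) for H2A.

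Of the bins with at least 20 reads in both libraries together, 24 of 100 histone-gene bins and 42 of 181 other bins had a ratio of 2 or more, against 17.7% of such bins on chromosomes 1 to 19. At a ratio of at most 0.5 stood 9 histone-gene bins and 36 other bins, against 27.8% on chromosomes 1 to 19. Just inside the upper threshold were the bins at chr13:21860001-21861000 and chr13:21829001-21830000, both at 2.00 to 2.01, and just outside it the bins of H2bc3 (1.98) and of H2bc13 and H2ac13 (1.96). The highest finite ratios were both at H4 genes. The bin of H4c6 at chr13:23551001-23552000 had 39 reads in S phase, against 3 in G1 (ratio 17.0, 5.41 to 86.1), and the bin of H4c1 and H3c1 at chr13:23761001-23762000 had 40 reads, against 4 (13.1, 4.73 to 50.4).

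Empty bins between the genes were common at this depth, 25 of 485 in S phase and 58 in G1, and 4 of those empty in 1 library had at least 20 reads in the other. The bins at chr13:21880001-21881000 and at the gene Zfp184 (chr13:21946001-21947000) had 21 reads each in S phase, against 0 in G1, and the bin at chr13:23579001-23580000 had 20, against 0. Against the level of 3 reads, which a count of 0 allows (0.112 RPM in the G1 library), these were at least 9.16-fold, 9.16-fold and 8.73-fold higher in S phase. The bin at chr13:23651001-23652000 had 0 reads in S phase, against 22 in G1, and was at least 5.60-fold lower in S phase. Each such count came from 3 to 7 covered positions. The lowest ratio among histone-gene bins with at least 20 reads was at chr13:23584001-23585000 in the long gene model of H2bc6, with 2 reads in S phase, against 23 in G1.

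Each histone gene was then counted over its body with 500 bp on both sides, where all 62 genes had at least 20 reads. Of the 62, 50 had a ratio above 1, against 60.9% of the 41890 genes on chromosomes 1 to 19 with as many reads. The interval lay above 1 for 32 genes (28.9% of all genes) and below 1 for 5 (12.9% of all genes). At least 2 times higher stood 9 genes (8.23% of all genes), and none stood at a ratio of at most 0.5 (6.19% of all genes). The median log2 ratio, with a pseudocount of 1, was 0.45 for histone genes and 0.12 for all genes. With libraries scaled to their median bin, these medians were 0.65 and 0.31. In covered positions the interval lay above 1 for 6 genes (9.47% of all genes) and below 1 for none (2.44% of all genes), so of the 62 about the same share as of all genes had one above 1. Since 41 genes share part of their window with a neighbour, the windows merge into 39 loci, of which 33 had a ratio above 1 and 22 an interval above 1, while 3 had an interval below 1.

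Ribosomal protein genes and histone genes elsewhere had medians close to that of the clusters. The median log2 ratio was 0.44 for 76 ribosomal protein genes and 0.46 for 8 histone genes that are expressed outside S phase and lie elsewhere, while it was lower, 0.31, for 39 Hox genes. The 56 histone genes of up to 1000 bp had a median of 0.47, and protein-coding genes of that length outside the clusters had -0.14, with 44.1% of them above a ratio of 1.

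The H4 genes, whose product pairs with H3 in the core of the nucleosome, had the highest ratios. As a family they held 521 reads in S phase, against 343 in G1, or 1.498 against 0.753 RPM per kb, a ratio of 1.99 (1.73 to 2.29), and 1.86 (1.45 to 2.40) in covered positions. Of the 12 genes 11 had a ratio above 1 (60.9% of all genes), 9 had an interval above 1 (28.9%) and 5 were at least 2 times higher (8.23%). In covered positions 4 of the 12 had an interval above 1, against 9.47% of all genes. Reads near H4 genes alone, each counted once, had a ratio 1.58 times that of reads near the other histone genes (1.36 to 1.83), and 1.58 times (1.21 to 2.08) in covered positions. Among genes of up to 1000 bp, which all H4 genes are, this family also had the fewest reads per kb in both states; the next lowest were the H1 genes in S phase (2.57 RPM per kb) and the H3 genes in G1 (1.86).

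H4c1 had 42 reads in S phase, against 8 in G1 (ratio 6.87, 3.19 to 16.9), on 20 and 6 positions. The H4c1 stretch shown above held 19 of these in S phase, against 3 in G1, and over the gene body the ratio was 5.67 (1.56 to 31.0). H4c6 had 48 reads in S phase, against 12 in G1 (5.24, 2.74 to 10.8), on 11 and 3 positions. The H4c6 stretch shown above held only 13 of these in S phase, against 2 in G1. Over the H4c6 body the ratio was 28.8 (4.65 to 1188). H4c9 had 40 reads in S phase, against 15 in G1 (3.49, 1.89 to 6.80), on 17 and 6 positions. These 3 rest on small counts, and with 2 kb on both sides the ratios were 2.62 for H4c1, 2.27 for H4c6 and 1.496 for H4c9. The H4c6 window includes, and that of H4c1 overlaps, a bin with 1 of the highest ratios given above. H4c3, with the most reads of the family, had 103 in S phase, against 65 in G1 (2.07, 1.51 to 2.87). H4c18 had 43 reads in S phase, against 27 in G1 (2.08, 1.26 to 3.51), but its promoter shares 94.5% of its 30-base words with that of H4c17, and how reads that match several places were treated is not given in the sources used here. At the low end H4c4 had 49 reads in S phase, against 68 in G1 (0.943, 0.640 to 1.38), though its ratio was 1.51 (1.09 to 2.09) with 2 kb on both sides and 1.64 over its body.

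The H3 genes came next. They held 1122 reads in S phase, against 952 in G1, or 2.86 against 1.86 RPM per kb, a ratio of 1.54 (1.41 to 1.68). Of the 12 genes 11 had a ratio above 1 (60.9% of all genes), and 10 had an interval above 1 (28.9% of all genes). H3c10 had 31 reads in S phase, against 15 in G1 (2.71, 1.42 to 5.39), and H3c1 had 70, against 42 (2.18, 1.47 to 3.28). The H3c1 window overlaps that of H4c1. H3c7 had 73 reads in S phase, against 117 in G1 (0.817, 0.601 to 1.10), but its ratio was 1.40 in covered positions, 1.11 over its body and 1.19 with 2 kb on both sides or on the minus strand alone. In covered positions all 12 H3 genes had a ratio above 1, but only 1 had an interval above 1, against 9.47% of all genes. H3 and H4 genes together had a ratio 1.44 times that of the other histone genes (1.32 to 1.59), and 1.46 times (1.22 to 1.76) in covered positions.

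The genes of H2B, which forms a dimer with H2A, held 2081 reads in S phase, against 2153 in G1, a ratio of 1.27 (1.19 to 1.34). H2bc6 had the most reads of any histone gene, 454 in S phase, against 471 in G1 (1.26, 1.11 to 1.44), spread over a gene model of 37455 bp. H2bc3 had the highest ratio of the family, with 74 reads in S phase, against 41 in G1 (2.36, 1.59 to 3.55). H2bc13 had 202 reads in S phase, against 131 in G1 (2.02, 1.61 to 2.53), although its plus-strand reads alone gave 0.964. In covered positions the ratio was 2.07 (0.978 to 4.69) for H2bc3 and 1.24 (0.724 to 2.16) for H2bc13, and both intervals held 1. H2bc12 had 211 reads in S phase, against 201 in G1 (1.37, 1.13 to 1.68). Lower in S phase were H2bc8, with 56 reads, against 117 in G1 (0.626, 0.447 to 0.869), and H2bc4, with 134, against 240 (0.731, 0.587 to 0.907). In covered positions the ratios of H2bc8 and H2bc4 were 0.909 (0.483 to 1.71) and 0.708 (0.453 to 1.10), and both intervals held 1.

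The H2A genes held 1291 reads in S phase, against 1470 in G1, a ratio of 1.15 (1.07 to 1.24), and their median log2 ratio of 0.29 turned to -0.04 with each covered position counted once. Of the 16 genes 11 had a ratio above 1 (60.9% of all genes), 5 had an interval above 1 (28.9% of all genes) and 3 an interval below 1 (12.9% of all genes), so the counts above 1 were near those of all genes. H2ac13 had 207 reads in S phase, against 141 in G1 (1.92, 1.54 to 2.40), and H2ac12 had 210, against 212 (1.30, 1.07 to 1.58). In covered positions the ratios of H2ac13 and H2ac12 were 1.15 (0.679 to 1.98) and 1.28 (0.807 to 2.04), and both intervals held 1. Most of the reads of H2ac13 and H2ac12 lie in the promoters they share with H2bc13 and H2bc12. H2ac21 had 61 reads in S phase, against 137 in G1 (0.583, 0.424 to 0.794), on 19 positions in each library. Its promoter shown above held 42 of these reads in S phase, against 104 in G1. The highest G1 position there, 134 bases before the start on the antisense strand, held 22 reads, and the highest S-phase position, 56 bases before the start on the sense strand, held 7. H2ac18 had 43 reads in S phase, against 95 in G1 (0.592, 0.403 to 0.858), with a promoter that shares 70.1% of its 30-base words with that of H2ac19, and counted with 2 kb on both sides its ratio was 1.23. H2ac8, head to head with H2bc8, had 57 reads in S phase, against 118 in G1 (0.632, 0.453 to 0.875). In covered positions the ratios of H2ac21, H2ac18 and H2ac8 were 0.951 (0.476 to 1.90), 0.761 (0.425 to 1.35) and 0.875 (0.474 to 1.61). Each of these intervals held 1.

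The H1 genes held 558 reads in S phase, against 638 in G1, or 2.57 against 2.25 RPM per kb, a ratio of 1.14 (1.02 to 1.28), and their median log2 ratio of 0.23 turned to -0.22 on the plus strand alone and to -0.34 over gene bodies alone. H1f5 had 172 reads in S phase, against 174 in G1 (1.29, 1.04 to 1.61), but its ratio was 0.679 (0.414 to 1.09) on the minus strand alone and 0.238 (0.0815 to 0.575) over its body. H1f2 had 69 reads in S phase, against 113 in G1 (0.799, 0.584 to 1.09). H1f6, the testis-specific H1 gene, had 22 reads in S phase, against 17 in G1 (1.69, 0.859 to 3.40), on 7 positions in each, a position ratio of 0.951.

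**Figure D5:**
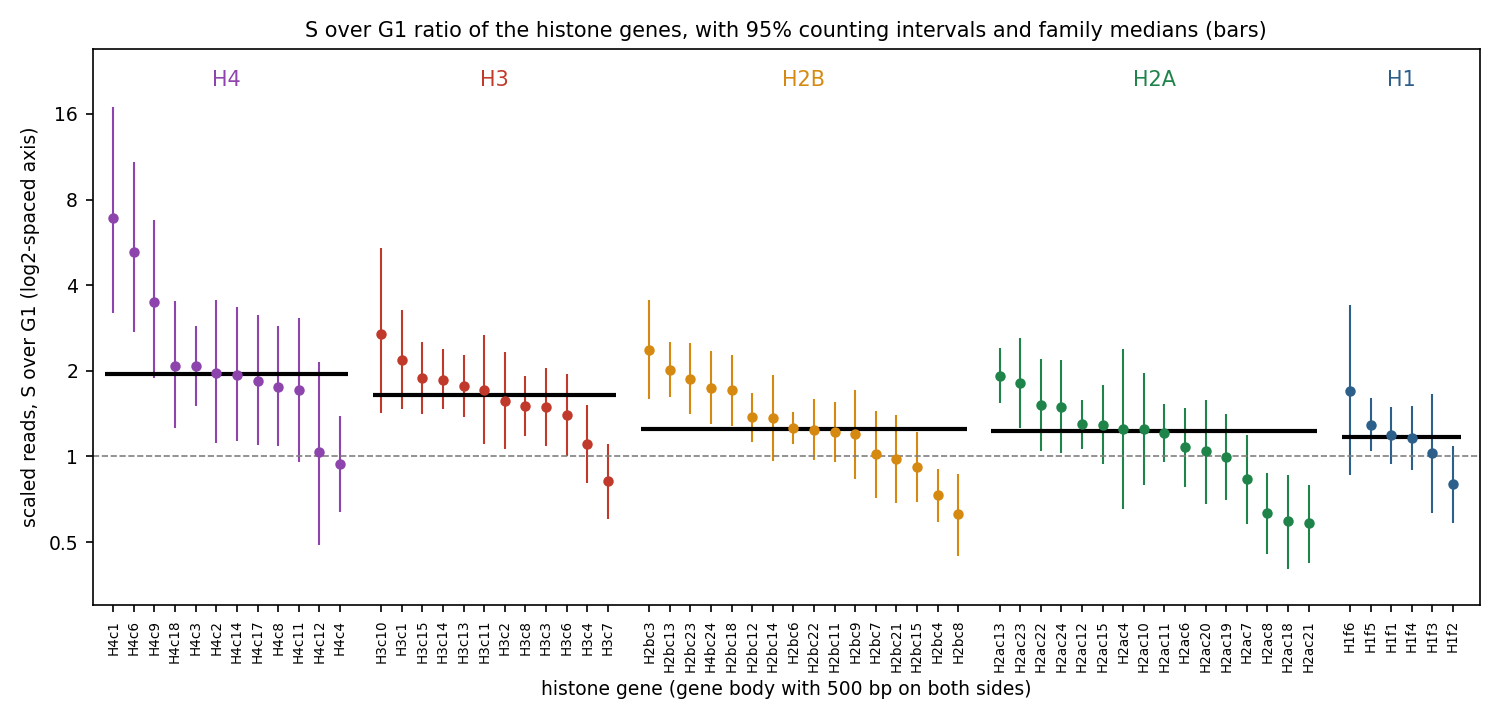
Scaled S-phase over G1 ratio (y axis, log scale) of each of the 62 histone genes, grouped by family and sorted within it (x axis), with 95% counting intervals and the family median as a black bar. H4 genes run between 0.943 and 6.87 and H3 genes between 0.817 and 2.71, while H2A genes run between 0.583 and 1.92.

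The other protein-coding genes inside the clusters had few reads per kb. The zinc-finger gene Zfp184 had 192 reads in S phase, against 179 in G1 (1.40, 1.14 to 1.73), or 0.558 against 0.398 RPM per kb. Hfe, which encodes a regulator of iron uptake, had 52 reads in S phase, against 44 in G1 (1.55, 1.02 to 2.37). Prss16, which encodes a thymic serine protease, had 53, against 39 (1.78, 1.15 to 2.76). Fcgr1, which encodes an Fc receptor and reaches past the chromosome 3 cluster, had 101, against 85 (1.56, 1.15 to 2.10), and Pom121l2 had 64, against 78 (1.07, 0.759 to 1.51). All 5 thus had a ratio above 1, as 60.9% of all genes did.

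Histone genes that are expressed throughout the cell cycle and lie outside the clusters gave mixed values. H2ax, whose product is phosphorylated at DNA breaks, had 274 reads in S phase, against 244 in G1 (1.47, 1.23 to 1.75), or 5.64 against 3.84 RPM per kb. H2az2 had 598, against 509 (1.54, 1.36 to 1.73), H3f3a 231, against 197 (1.53, 1.26 to 1.87), H3f3b 306, against 312 (1.28, 1.09 to 1.51), and H2az1 286, against 321 (1.17, 0.991 to 1.37). Lower in S phase were the linker gene H1f0, with 23, against 51 (0.590, 0.344 to 0.984), and Macroh2a1, with 352, against 596 (0.773, 0.676 to 0.883). H1f10 had 16 reads in S phase, against 5 in G1 (4.19, 1.47 to 14.6). Of these 8 genes 6 had a ratio above 1.

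The plus strand held 47.4% of cluster reads in S phase (46.3 to 48.4), against 50.3% in G1 (49.3 to 51.4), where chromosomes 1 to 19 had 49.4% and 49.3%. In covered positions the shares were 49.0% (47.1 to 50.8) and 50.7% (48.6 to 52.8), and their intervals overlapped. In histone-gene bins the shares were close, 45.7% in S phase and 46.4% in G1, whereas in the other bins they were 49.2% (47.6 to 50.7) in S phase, against 54.3% (52.8 to 55.8) in G1. In covered positions those of the other bins were 49.1% in S phase (46.5 to 51.6), against 51.8% in G1 (49.0 to 54.7), with overlapping intervals, and the chromosome 3 cluster had 49.3% and 49.7% of reads on the plus strand. The strand shares along the genes, with 65.1% of gene-body reads sense in S phase (61.3 to 68.8), against 64.2% in G1 (60.3 to 67.9), were alike within counting error.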

How the data were processed

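For each library and strand the authors deposited a bedGraph track, whose values, per the file headers and the files themselves, are unnormalized counts of read ends at each base. The submitters' processing notes name Bowtie 1.1.2, SAMtools 1.11, bedtools and mm10; for settings, duplicates and reads matching several places nothing is given in the sources used here.

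Counts were added up in Python 3.11.15 (numpy 2.4.6, pandas 2.3.3) over 1 kb bins, genes with 500 bp on both sides and 300-base promoter windows, and scaled to chromosomes 1 to 19. Intervals (scipy 1.17.1) are conditional exact Poisson intervals for ratios and Clopper-Pearson intervals for shares. A bin or gene was called from 20 reads in both libraries together and a 2-fold difference. The bin step was tested on simulated Poisson counts without stacks. That run does not cover calls on stacked reads. Figures were drawn with matplotlib 3.10.9.

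The clusters, gene lists, motifs and naming rule were chosen with earlier results of these data known. The rule names the 6 highest and 6 lowest ratios, the 6 genes with the most S-phase reads, the highest and lowest of each family, H1f6, the other protein-coding genes, 8 histone genes elsewhere, and for bins the 5 highest in reads, the 5 highest ratios and the 5 lowest. Other items named, among them the H1 promoters, H4c3, H4c18 and the CCAAT segments, were chosen after their values were seen. Alternatives covered scaling, stacks, strand, windows, thresholds and gene classes.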

Additional observations from a re-analysis of the deposited data

How the results depend on the processing

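Scaling to the median bin gave cluster ratios of 1.45 together, 1.56 and 1.35 for the first and second chromosome 13 cluster and 1.43 for chromosome 3. Each covered position once gave 1.21 together, 1.30 for the first chromosome 13 cluster and 1.14 for chromosome 3. The plus strand alone gave 1.19 together, and 1.28 and 1.09 for the chromosome 13 clusters, and the minus strand alone 1.34, 1.46 and 1.26. The ratio of histone-gene bins over that of other bins was 1.17 with plus-strand reads and turned to 0.979 with minus-strand reads, and it was 1.16 in the second chromosome 13 cluster. Chosen after seeing the data, it was 1.11 without genes longer than 1000 bp, 1.05 (0.989 to 1.12) without near-identical copies and 1.04 (0.975 to 1.10) without H4 genes, and the median log2 ratio of the histone genes was then 0.47, 0.37 and 0.35.

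Of 281 bins tested, 66 were past 2-fold higher in S phase and 45 lower. The counts were 4 and 0 of 49 with each position once, 25 and 14 of 103 with plus-strand reads, 29 and 19 of 104 with minus-strand reads, 140 and 88 of 496 at 10 reads, 6 and 3 of 52 at 50 reads, 119 and 68 of 281 at a fold of 1.5, and 42 and 25 of 173 in 500 bp bins, and 23 of 281 were lower in 2 kb bins. As the number tested differs, these counts do not show bins gained or lost. Histone genes with an interval above 1 numbered 6 of 55 by positions (12.4% of all genes with as many), 20 of 58 on the plus strand (26.4%) and 10 of 37 over gene bodies (27.8%), so by positions and over bodies they were near the share of all genes. Those below 1 numbered 3 scaled to the median bin, 0 by positions and 3 on the plus strand, and 4 genes stood at or below 0.5 over bodies. Genes at least 2 times higher numbered 20 scaled to the median bin, 5 by positions, 16 with plus-strand and 17 with minus-strand reads and 4 with 2 kb flanks. The plus-strand share in S phase was 49.0% by positions, and the ratio of the last 100 bases before the start 1.34.

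Direction turned for H1f5 on the minus strand (0.679) and over its body (0.238), on the plus strand for H2bc13 (0.964), H2ac13 (0.945) and H2ac18 (1.11), for H2ac18 with 2 kb flanks (1.23), for H3c10 on the minus strand (0.917), and over gene bodies for H3c1 (0.982), H2ac21 (1.31) and H2bc8 (1.87). Among named genes whose interval held 1, the ratio crossed 1 for H1f6 by positions (0.951) and on the plus strand (0.523), for H3c7 by positions (1.40), on the minus strand and with 2 kb flanks (1.19 in both) and over its body (1.11), and for H4c4 scaled to the median bin (1.08), on the plus strand (1.17), over its body (1.64) and with 2 kb flanks (1.51). A further 70 alternative values of the main comparisons stayed within the range set for the main value or within 1.5 times a reported count. For the median log2 ratio of the histone genes, 0.45, that range was wide, 0.0709 to 0.851. This median was 0.26 with plus-strand reads and 0.37 over gene bodies. No paired analysis was possible because there was 1 library per state. Unless the alternative itself leaves out reads, the cause was not tested. Single genes with under 50 reads and gene bodies are limited by depth.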
